A study of Homo sapiens with 12 samples.

Results

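Proteasome subunits and assembly factors were examined in 2 liver cancer cell lines after knockdown of FASRL, a long noncoding RNA driven by a superenhancer. The members were all listed genes whose symbol starts with PSMA, PSMB, PSMC, PSMD, PSME, PSMF or PSMG followed by a number, and 38 of the 8842 listed genes met this rule. RefSeq names 48 protein-coding genes of this pattern; PSMA3, PSMA8, PSMB2, PSMB8, PSMB11, PSMD10, PSME1, PSME2, PSMG3 and PSMG4 were not analysed here.

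The study asked how FASRL acts in lipid metabolism of hepatocellular carcinoma. HepG2 and LM3 are established human liver cancer lines, and each was transfected with siFASRL, small interfering RNA against FASRL, or with siNC, the negative control. According to the siRNA protocol of the study, RNA was harvested 48 h after transfection. Polyadenylated RNA was sequenced in 3 replicates of each of the 4 groups (HepG2 siNC, HepG2 siFASRL, LM3 siNC and LM3 siFASRL), 12 libraries in all. The labels do not say which siRNA sequence was used, so effects of losing FASRL and effects of the siRNA itself cannot be told apart.

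The proteasome is the protease complex that degrades proteins tagged with ubiquitin in the cytoplasm and nucleus. Its barrel, the 20S core, is built from outer rings of alpha subunits and inner rings of beta subunits, some of which carry the proteolytic sites, and its cap, the 19S regulatory particle, binds, deubiquitinates, unfolds and feeds in the substrate. Dedicated chaperones assemble core and cap, interferon-inducible beta subunits can replace the constitutive catalytic ones to form the immunoproteasome, which shapes the peptides shown by MHC class I molecules, and other caps such as PA28 and PA200 can take the place of the 19S particle.

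Values were expression levels from RSEM. They were taken as scaled for gene length, which the labels do not state. Levels of different genes within a library are set side by side below on that reading. Whether the unit is FPKM or TPM is not stated, and the depth of each library is unknown. FASRL itself was not analysed here, so the labels were not checked against the knockdown in these libraries; the study describes its own check of knockdown in both lines. The methods speak of repeated experiments with cell lines in general, but nothing says that the replicates sequenced here came from separate cultures, so p-values measure the spread between these samples. Nor is it stated on what grounds the 8842 genes were selected. In HepG2 only 33 of the 8144 genes tested had a log2 fold change between -0.2 and 0, against 1173 between 0 and 0.2, whereas LM3 held 969 and 1110 genes in these intervals, so every count below refers to the listed genes only. Genes with slight falls in HepG2 were thus nearly absent, and listing was not even across the HepG2 change. In the interval from -0.2 to 0 lay 0 members in HepG2, against 8 in LM3. The shares over all genes tested given below may be those of a list chosen for change. How this unevenness arose was not tested.

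The libraries of a group were alike, with correlations of log2 values across genes between 0.9954 and 0.9989. LM3 siNC replicate 1 stood apart from the other LM3 controls: the summed level of the 12 constitutive core subunits was 1402 in this library against 1560 and 1570 in LM3 siNC replicates 2 and 3. LM3 results are therefore given with and without it where it matters. In HepG2, siFASRL replicate 1 had the lowest core sum of its group, 1622 against 1921 and 1847. Of 11 hepatocyte lineage markers 9 were listed. In HepG2 8 of them were lower under siFASRL, and albumin (ALB) went from 850.80, 805.22 and 789.84 under siNC to 232.85, 230.67 and 241.31 under siFASRL. In LM3 ALB, AFP, APOA1, APOB, TTR and TF were at or near 0 in every library, while HNF4A and KRT18 were present, and both fell. HNF4A went from 14.39, 14.40 and 14.23 under siNC to 6.32, 7.64 and 6.17 under siFASRL in LM3 (limma adjusted p = 5.66e-06), and KRT18 from 854.60, 997.51 and 968.77 to 728.17, 783.35 and 755.14 (-0.31; limma adjusted p = 0.00294). Of 7 leukocyte markers only CD68 and LYZ were listed. Their summed level was 126.62, 123.08 and 121.65 in HepG2 siNC, where LYZ was the more abundant, and 96.96, 87.24 and 88.82 in HepG2 siFASRL, where CD68 was higher in replicate 1 and LYZ in the others. In LM3 it was 18.19, 15.10 and 16.19 under siNC and 18.43, 18.49 and 19.03 under siFASRL, most of it CD68. All 4 stroma markers were listed; their sum was 56.48, 56.04 and 57.90 in HepG2 siNC, with COL3A1 the most abundant, and 30.88, 27.80 and 28.14 in HepG2 siFASRL, with COL1A1 the most abundant. In LM3 the sum was 15.10, 14.30 and 13.17 in siNC and 4.69, 5.86 and 5.25 in siFASRL, with COL1A1 the most abundant and COL3A1 and DCN near 0. The endothelial marker VWF was near 0 in all 12 libraries. The part of these shifts in the results below was not tested.

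Under siNC the core subunits stood highest. In HepG2 the 12 constitutive core subunits had a median level of 119 and ranged from PSMA5, an alpha ring subunit, at 20 to PSMB5, the chymotrypsin-like catalytic subunit, at 221. The 17 subunits of the 19S particle had a median of 45.2 and ranged from 18.5 for PSMD12, a scaffold subunit of the lid, to 77.8 for the ubiquitin receptor PSMD4. In LM3 the core median was 106, with PSMA5 lowest at 42.4 and the trypsin-like catalytic subunit PSMB7 highest at 215, and the 19S median was 54.7, from PSMD12 at 22.2 to the ATPase PSMC3 at 148. At the low end, the immunoproteasome subunit PSMB9 averaged 4.87 ± 0.255 in HepG2 siNC and its partner PSMB10 averaged 15.8 ± 2.44 in LM3 siNC (SD, n = 3).

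**Figure D1:**
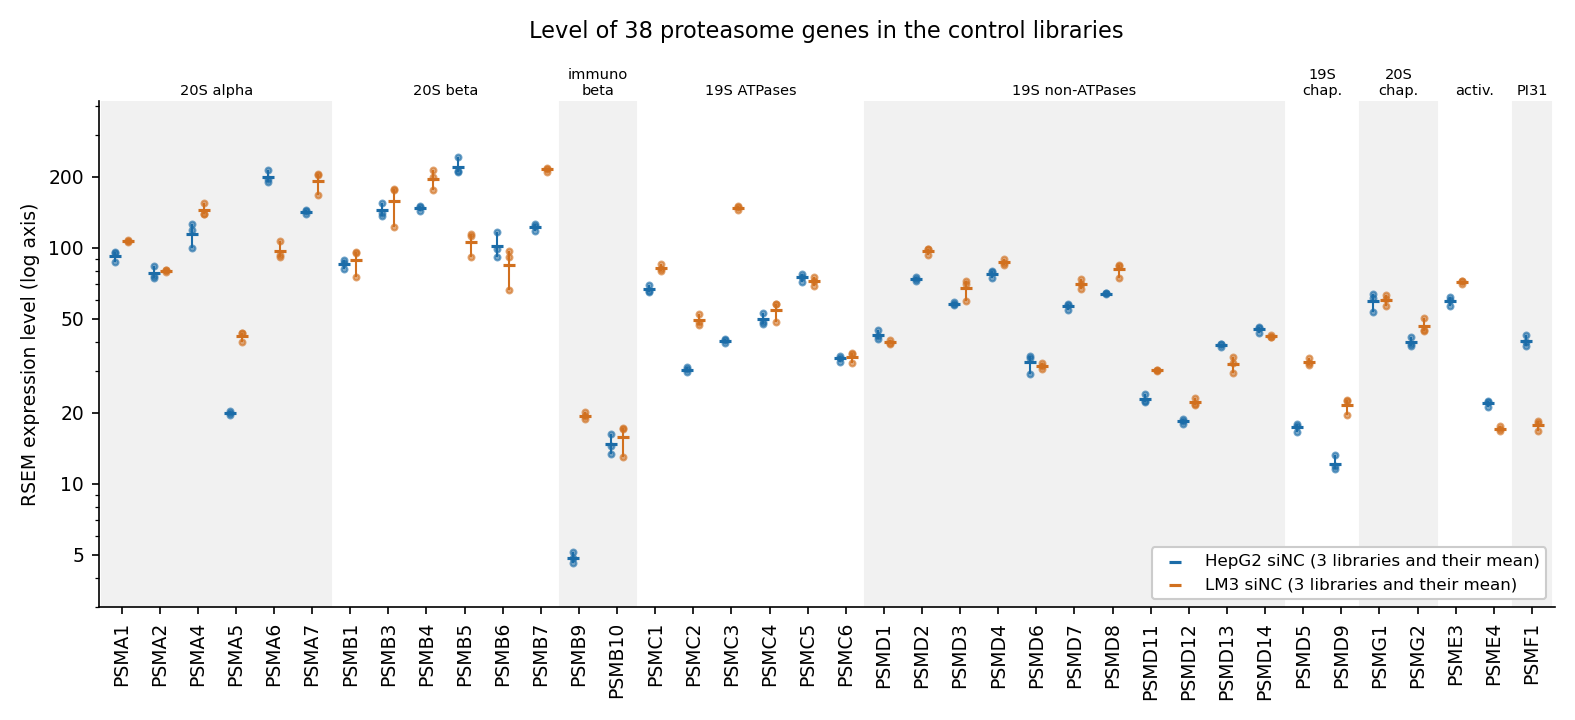
RSEM expression level (log axis) of each of the 38 proteasome genes in the 3 siNC libraries of HepG2 and of LM3; points are libraries, vertical lines their range and horizontal marks their mean. PSMB9, PSMA5 and PSMC3 lie higher in LM3, and PSMA6, PSMB5 and PSMF1 lie higher in HepG2.

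The control levels differed between the lines for 26 members by limma on log2(value + 1) at an adjusted p under 0.05. LM3 was higher for 21 of 38 members (55.3%, against 40.4% of the 8176 genes tested) and lower for 5 (13.2%, against 40.6%). PSMC3 and PSMB9 showed the largest differences. PSMC3 read 40.67, 39.61 and 41.02 in HepG2 and 144.97, 150.10 and 149.51 in LM3 (log2 difference 1.85 ± 0.05, SE; limma adjusted p = 8.91e-09). PSMB9 read 5.13, 4.62 and 4.86 in HepG2 and 18.81, 20.21 and 19.31 in LM3 (1.80 ± 0.06; limma adjusted p = 2.45e-08). For both genes each LM3 library lay above each HepG2 library. In the other direction, PSMF1 (-1.14), PSMB5 (-1.06) and PSMA6 (-1.03) were lower in LM3. Without LM3 siNC replicate 1, limma called 25 members higher and 5 lower, and without any other 1 of the 6 control libraries 18 to 20 higher and 5 or 6 lower.

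In HepG2 most proteasome genes were higher after siFASRL. Limma on log2(value + 1) called 27 of 38 members higher at an adjusted p under 0.05 (71.1%, against 44.8% of the 8144 genes tested) and 2 lower (5.26%, against 44.3%). The median log2 fold change of the members was 0.33, beside 0.10 over all genes tested. All 3 siFASRL libraries lay above all 3 siNC libraries for 25 members (65.8%, against 45.4% of all genes tested) and below them for 2 (5.26%, against 44.2%). The differences were modest: when a log2 fold change of 1 or more in size was also required, limma called 1 member higher, PSMC3 (3.61% of all genes tested), and 0 lower (6.79% of all genes tested), where 2 members were lower at an unadjusted p under 0.05. The 2 members that fell, PSMB9 and PSMB10, are the listed immunoproteasome subunits. In each scaling tried these 2 were the members called lower.

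Limma in LM3 called 24 of 38 members higher (63.2%, against 33.9% of the 7483 genes tested) and 3 lower (7.89%, against 43.5%), and their median log2 fold change was 0.21, beside -0.06 over all genes tested. All 3 siFASRL libraries lay above all 3 siNC libraries for 26 members (68.4%, against 35.6%) and below them for 6 (15.8%, against 44.6%). When a log2 fold change of 1 or more in size was also required, limma called 0 members higher (1.42% of all genes tested) and 0 lower (6.2%), where 24 were higher and 3 lower at an unadjusted p under 0.05. Scaling matters in this line, since it moved the median of all genes from -0.06 with the values as deposited to 0.05 with median-of-ratios scaling and to -0.17 with equal sums over the listed genes, the last chosen after seeing the data. Relative to the median of all genes, the members' median lay 0.27 higher as deposited, 0.28 higher with median-of-ratios scaling, 0.27 higher with equal sums and 0.11 higher with quantile normalization. The same differences in HepG2 were 0.23, 0.23, 0.22 and 0.18, so on the deposited scale the smaller median in LM3 goes with a lower median of all genes. Members called higher were 28 of 38 with median-of-ratios scaling, where 3140 of the 7483 genes tested were called higher. With quantile normalization 17 of 38 were called higher, beside 2813 of the 7483 genes, so the members lay nearer to all genes there. With equal sums, 14 members were called higher and 6 lower, beside 1854 higher and 3754 lower of the 7483 genes tested. The share of higher among all calls in the line was then 33.1% in place of 43.8%. Without LM3 siNC replicate 1, limma called 22 members higher and 4 lower, beside 2739 and 3201 of 7243 genes tested.

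**Figure D2:**
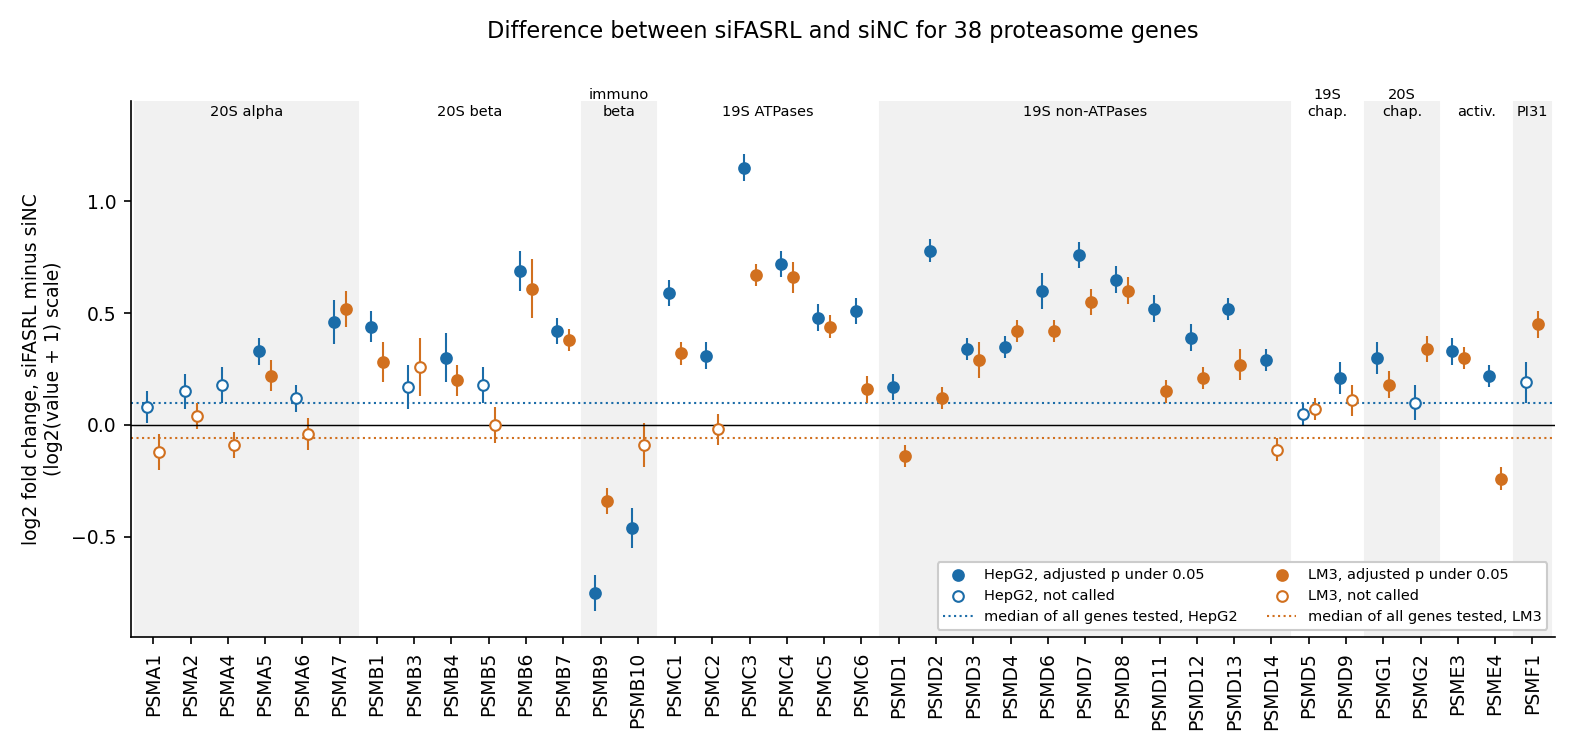
Log2 fold change, siFASRL minus siNC on the log2(value + 1) scale, of the 38 proteasome genes in HepG2 and LM3, grouped by subunit class; bars are standard errors, filled points have a limma adjusted p under 0.05 and dotted lines mark the median of all genes tested (0.10 in HepG2, -0.06 in LM3). PSMC3 lies highest, and PSMB9 and PSMB10 lie lowest in HepG2.

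For each subunit class below, the shares over all genes tested are 44.8% higher and 44.3% lower in HepG2. In LM3 they are 33.9% higher and 43.5% lower. The ATPases of the 19S base form the ring that unfolds substrates and opens the gate of the core. All 6 were called higher in HepG2 as deposited and in each of the 3 other scalings (median 0.55), and 5 of 6 in LM3 (median 0.38; 5 with median-of-ratios scaling and 4 with quantile normalization or equal sums). PSMC3 (gene 5702, chr11:47418775-47426439), the ATPase also called Rpt5, read 40.67, 39.61 and 41.02 in HepG2 siNC and 95.24, 90.58 and 87.23 in HepG2 siFASRL. Every HepG2 siFASRL library was thus above 2 times every control library, and the log2 fold change was 1.15 ± 0.06 (SE; limma adjusted p = 1.54e-07). In LM3 its level was 144.97, 150.10 and 149.51 under siNC and 241.66, 236.50 and 229.72 under siFASRL. The LM3 groups did not overlap either, and the log2 fold change was 0.67 ± 0.05 (limma adjusted p = 5.08e-06). In each line where the groups of a gene did not overlap, the two-sided exact permutation test of 3 against 3 gave p = 0.1, the smallest it can give.

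PSMC4 (gene 5704), the ATPase Rpt3, was at 47.81, 53.10 and 48.55 in HepG2 siNC and at 79.58, 85.08 and 84.12 in HepG2 siFASRL, a log2 fold change of 0.72 ± 0.06 (limma adjusted p = 3.67e-06). LM3 gave 48.51, 57.71 and 57.80 under siNC and 88.06, 88.00 and 84.33 under siFASRL, a log2 fold change of 0.66 ± 0.07 (limma adjusted p = 5.65e-05). The siFASRL libraries lay above the siNC libraries in both lines. Of the remaining ATPases, PSMC1, PSMC5 and PSMC6 were called higher in both lines, by 0.48 to 0.59 in HepG2 and by 0.16 to 0.44 in LM3, although PSMC6 in LM3 lost its call with a pseudocount of 0.1, with quantile normalization, with equal sums and without siFASRL replicate 2 or 3 or siNC replicate 1 or 3. PSMC2 rose in HepG2 (0.31) and was not called in LM3 (-0.02).

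Because all 17 cap genes were called higher in HepG2, with PSMC3 first, the sequence before the start of PSMC3 is printed. It comes from the RefSeq promoter table (GRCh38.p14, minus strand, chr11:47426474-47426689) and covers bases 250 to 35 before the start site, the part free of exons in GENCODE release 29. Capitals mark a match to CCGGAA, the core bound by ETS factors (on the opposite strand), and a CCAAT box.
PSMC3 upstream: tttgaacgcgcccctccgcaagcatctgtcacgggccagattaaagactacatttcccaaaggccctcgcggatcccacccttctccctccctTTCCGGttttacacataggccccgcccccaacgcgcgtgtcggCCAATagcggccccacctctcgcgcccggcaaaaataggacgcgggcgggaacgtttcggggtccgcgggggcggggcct

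The 11 non-ATPase subunits of the cap include the base scaffolds, the ubiquitin receptor PSMD4, the lid and its deubiquitinase PSMD14. Over all genes tested, 44.8% were called higher in HepG2 and 33.9% in LM3. In HepG2 11 of 11 were called higher (median 0.52; 11 with median-of-ratios scaling, 10 with quantile normalization or equal sums). In LM3 9 were called higher and 1 lower (median 0.27), with 9 higher under median-of-ratios scaling, 7 higher and 2 lower under quantile normalization and 4 higher and 2 lower under equal sums. PSMD2 (gene 5708, chr3:184299241-184309050), the scaffold Rpn1 that holds shuttle factors, was 72.12, 75.60 and 74.15 in HepG2 siNC and 132.15, 124.09 and 128.08 in HepG2 siFASRL. The HepG2 groups were far apart, with a log2 fold change of 0.78 ± 0.05 (limma adjusted p = 1.03e-06). In LM3 PSMD2 was 93.66, 99.01 and 99.04 under siNC and 104.78, 106.90 and 105.89 under siFASRL. The LM3 libraries did not overlap, but the log2 fold change was 0.12 ± 0.05 (limma adjusted p = 0.0477), and the call was lost with quantile normalization (0.01), with equal sums (0.00) and when any 1 of the 6 LM3 libraries was left out (0.10 to 0.14). It was also lost with a pseudocount of 0.1 (limma adjusted p = 0.0567) and in a fit that treats equal replicate numbers as a block (limma adjusted p = 0.0882).

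PSMD7 (gene 5713), the lid subunit Rpn8 that partners the deubiquitinase, measured 57.89, 54.49 and 57.34 in HepG2 siNC and 92.42, 99.24 and 97.52 in HepG2 siFASRL (log2 change 0.76 ± 0.06; limma adjusted p = 1.65e-06). In LM3 it measured 70.07, 66.74 and 74.14 under siNC and 100.03, 106.79 and 104.00 under siFASRL (0.55 ± 0.06; limma adjusted p = 3.56e-05). The groups did not overlap in either line. PSMD8, another lid subunit, also rose, by 0.65 in HepG2 and by 0.60 in LM3. PSMD1 (gene 5707), the scaffold Rpn2, was 42.31, 41.29 and 44.99 in HepG2 siNC and 51.12, 46.46 and 47.81 in HepG2 siFASRL, and in LM3 39.56, 38.98 and 40.74 under siNC and 34.60, 37.18 and 36.35 under siFASRL. It was called higher in HepG2 (0.17 ± 0.06; limma adjusted p = 0.0225) and lower in LM3 (-0.14 ± 0.05; limma adjusted p = 0.0346), with no overlap in either line. Both calls were weak. The HepG2 call was lost with quantile normalization (0.05), with equal sums (0.11) and without HepG2 siFASRL replicate 1 (0.13), siNC replicate 1 (0.16) or siNC replicate 2 (0.15), and the LM3 call was lost with median-of-ratios scaling (-0.02) and without siFASRL replicate 1 (-0.11), siFASRL replicate 3 (-0.14), siNC replicate 2 (-0.15) or siNC replicate 3 (-0.12), and with the replicate block (limma adjusted p = 0.0682). PSMD14 rose in HepG2 (0.29) and read -0.11 in LM3, where it was not called as deposited but was called lower with quantile normalization, with equal sums and without siFASRL replicate 3.

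**Figure D3:**
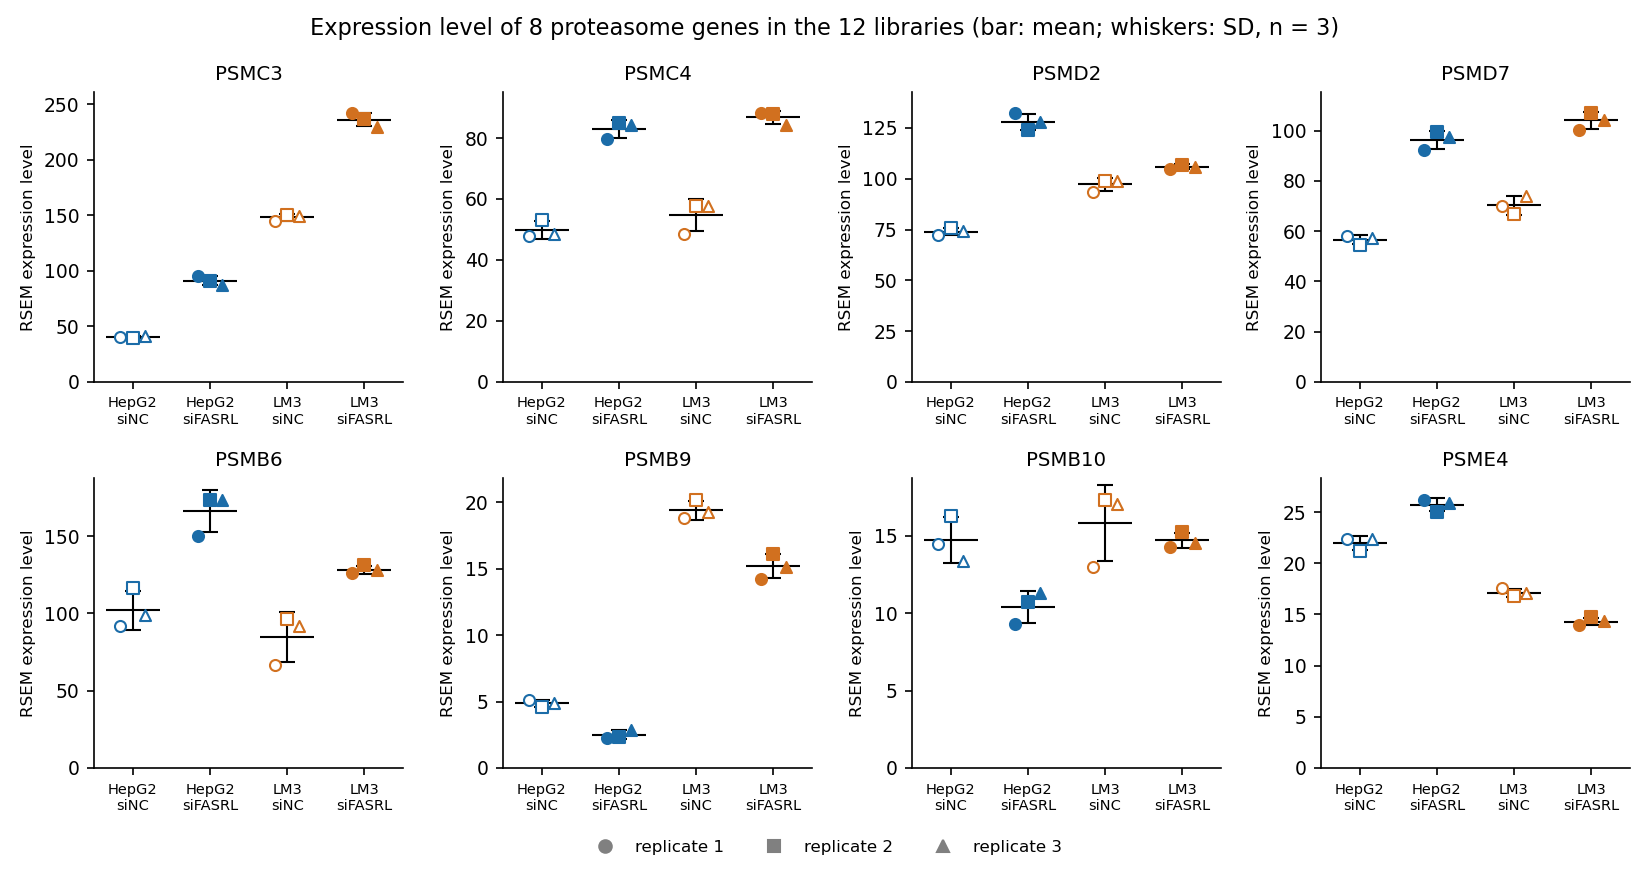
RSEM expression level of PSMC3, PSMC4, PSMD2, PSMD7, PSMB6, PSMB9, PSMB10 and PSME4 in the 12 libraries, with open symbols for siNC, filled symbols for siFASRL and a bar with whiskers for the mean and SD of 3 replicates. PSMC3 goes from 40.4 to 91.0 in HepG2 and from 148 to 236 in LM3, PSMB9 goes the other way, and PSME4 is higher under siFASRL in HepG2 and lower in LM3.

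Of the 6 listed subunits of the alpha ring, PSMA5 and PSMA7 rose in HepG2 (0.33 and 0.46) and in LM3 (0.22 and 0.52), though PSMA5 in LM3 lost its call with quantile normalization, with equal sums and without siFASRL replicate 2 or 3. The other 4, PSMA1, PSMA2, PSMA4 and PSMA6, differed by 0.08 to 0.18 in HepG2 and by -0.12 to 0.04 in LM3 and were called in neither line. The class median of 0.17 in HepG2 and 0.00 in LM3 compares with 0.10 and -0.06 over all genes tested. In LM3 the siFASRL libraries of PSMA1 and PSMA4 all lay below the siNC libraries, and both were called lower with quantile normalization and with equal sums. Other alternatives called subunits higher: PSMA2 in LM3 with median-of-ratios scaling, and in HepG2 PSMA2 without siFASRL replicate 1 or siNC replicate 3, PSMA4 with the replicate block, in the joint fit of 12 libraries and without siNC replicate 3, and PSMA6 without siNC replicate 1.

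The constitutive beta ring holds the catalytic subunits. PSMB1, PSMB4, PSMB6 and PSMB7 rose in both lines, 4 of 6 listed members in each. Of all genes tested, 44.8% were called higher in HepG2 and 33.9% in LM3. The class medians were 0.36 in HepG2 and 0.27 in LM3. Without LM3 siNC replicate 1 the LM3 median was 0.14 with 4 called higher, and with quantile normalization or equal sums it was 0.15 with 2 called higher, against 0.39 with 5 called higher under median-of-ratios scaling. PSMB6 (gene 5694, chr17:4796164-4798495), the caspase-like catalytic subunit, was 91.84, 116.40 and 99.15 in HepG2 siNC and 150.21, 173.59 and 173.61 in HepG2 siFASRL. In LM3 it was 66.30, 96.66 and 91.70 under siNC and 126.00, 131.06 and 128.33 under siFASRL. Its log2 fold change was 0.69 ± 0.09 in HepG2 (limma adjusted p = 7.87e-05) and 0.61 ± 0.13 in LM3 (limma adjusted p = 0.00201), without overlap in either line and with LM3 siNC replicate 1 the lowest of all 12 libraries.

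PSMB7 (gene 5695), the trypsin-like catalytic subunit, was 125.86, 117.83 and 123.58 in HepG2 siNC and 158.93, 171.10 and 161.25 in HepG2 siFASRL (0.42 ± 0.06; limma adjusted p = 8.76e-05). In LM3 it read 216.68, 209.90 and 217.60 under siNC and 270.95, 283.35 and 283.97 under siFASRL (0.38 ± 0.05; limma adjusted p = 0.000133). The siFASRL libraries were above the controls in both lines. PSMB5 (gene 5693), the chymotrypsin-like subunit, read 211.55, 241.63 and 209.33 in HepG2 siNC and 224.36, 268.59 and 256.71 in HepG2 siFASRL, and in LM3 91.38, 113.97 and 111.81 under siNC and 105.72, 107.12 and 101.89 under siFASRL. The groups overlapped in both lines and PSMB5 was not called in either (limma adjusted p = 0.0698 in HepG2 and 0.965 in LM3), although the HepG2 difference of 0.18 passed the test without siFASRL replicate 1 (0.25), without siNC replicate 2 (0.24) and with the replicate block (limma adjusted p = 0.0233). PSMB1 and PSMB4 in LM3 lost their calls with quantile normalization, with equal sums and without any 1 of the siFASRL libraries, PSMB1 also with no filter on low values and PSMB4 in the joint fit of 12 libraries. PSMB4 in HepG2 lost its call with the same scalings and without any 1 library other than siFASRL replicate 1.

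In HepG2 the immunoproteasome subunits were the only members called lower. PSMB9 (gene 5698, chr6:32854192-32859851), the interferon-inducible subunit that takes the place of PSMB6, was 5.13, 4.62 and 4.86 in HepG2 siNC and 2.25, 2.35 and 2.88 in HepG2 siFASRL. Every siFASRL library lay below every control, and the log2 fold change was -0.75 ± 0.08 (limma adjusted p = 1.09e-05), which understates the change of a gene at this low level. In LM3, where PSMB9 was more abundant, it was 18.81, 20.21 and 19.31 under siNC and 14.26, 16.09 and 15.17 under siFASRL. These groups did not overlap either (log2 fold change -0.34 ± 0.06; limma adjusted p = 0.000793). Its call was the same in all scalings in both lines, with a HepG2 change of -0.49 with quantile normalization.

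PSMB10 (gene 5699), which takes the place of PSMB7, was 14.43, 16.30 and 13.36 in HepG2 siNC and 9.27, 10.71 and 11.29 in HepG2 siFASRL, a fall without overlap (-0.46 ± 0.09; limma adjusted p = 0.000753). In LM3 the values were 12.97, 17.33 and 17.04 under siNC and 14.29, 15.24 and 14.54 under siFASRL. The LM3 groups overlapped only through siNC replicate 1, and PSMB10 was not called there (-0.09 ± 0.10; limma adjusted p = 0.45). Without that library the log2 fold change was -0.21 (limma adjusted p = 0.00228).

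Set against the subunit it replaces, the share of each immunoproteasome subunit was lower under siFASRL in both lines. PSMB9 amounted to 5.59%, 3.97% and 4.9% of the PSMB6 level in HepG2 siNC and to 1.5%, 1.35% and 1.66% in HepG2 siFASRL. In LM3 it amounted to 28.4%, 20.9% and 21.1% under siNC and 11.3%, 12.3% and 11.8% under siFASRL. The groups did not overlap in either line (two-sided exact permutation p = 0.1 in each). PSMB10 amounted to 12% ± 1.59 of the PSMB7 level in HepG2 siNC and 6.36% ± 0.591 in HepG2 siFASRL (SD, n = 3; exact permutation p = 0.1). For LM3 the shares were 7.36% ± 1.21 and 5.26% ± 0.13 (SD, n = 3; exact permutation p = 0.1), again without overlap. PSMB9 fell and PSMB6 rose without overlap in both lines, and PSMB10 fell and PSMB7 rose likewise in HepG2. The separation of those ratios, and their exact p, thus followed from the single genes. Only the LM3 ratio of PSMB10 to PSMB7 was open to overlap. PSMB10 itself was not called in LM3, where PSMB7 rose. These ratios concern RNA levels, not the makeup of assembled particles.

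**Figure D4:**
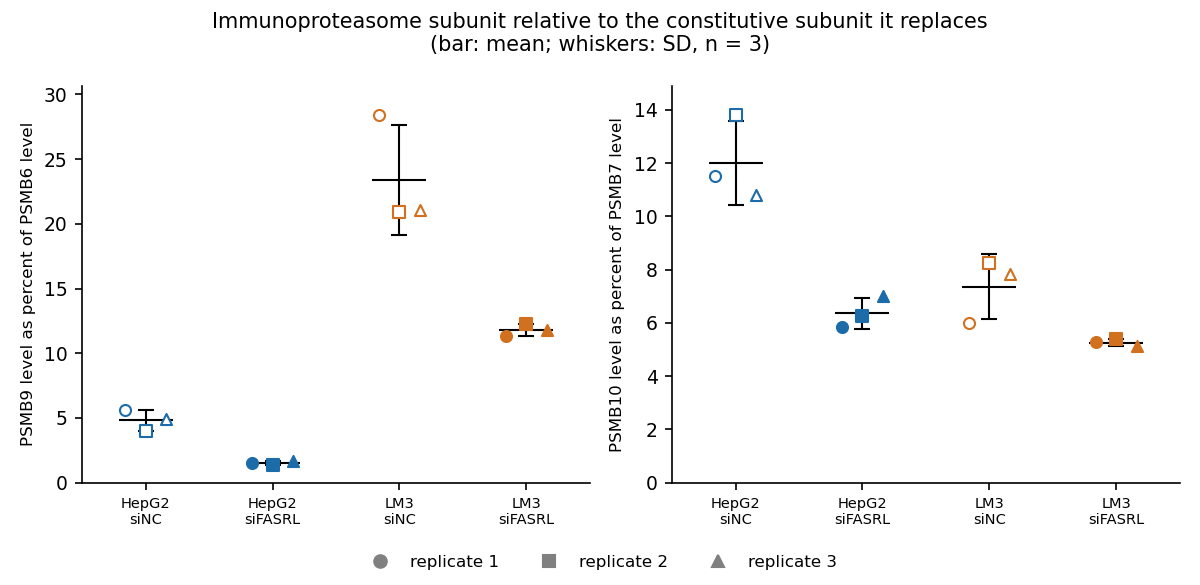
Level of PSMB9 as a percentage of PSMB6 (left) and of PSMB10 as a percentage of PSMB7 (right) in each library, with mean and SD of 3 replicates. All siFASRL libraries lie below all siNC libraries of the same line, from 4.82% to 1.5% in HepG2 and from 23.4% to 11.8% in LM3 for PSMB9.

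PSMB9 lies on chromosome 6 head to head with TAP1, which encodes a subunit of the peptide transporter of MHC class I loading; 487 bases separate the RefSeq ends of these genes. TAP1 moved the other way in HepG2, from 16.77, 16.43 and 16.38 under siNC to 20.43, 19.59 and 19.63 under siFASRL (0.25 ± 0.05; limma adjusted p = 0.00119). In LM3 it was 28.97, 29.33 and 28.06 under siNC and 25.72, 28.16 and 28.12 under siFASRL and was not called (-0.07 ± 0.06; limma adjusted p = 0.25), though it was called lower with equal sums (-0.19). The sequence between these neighbours is printed because they moved apart in HepG2. It is from the RefSeq promoter table (GRCh38.p14, plus strand, chr6:32853979-32854160) and holds bases 213 to 32 before the PSMB9 start site, the part free of GENCODE exons. Capitals mark a match to TGACNNNGC, the core of the antioxidant response element, on the opposite strand.
PSMB9 upstream: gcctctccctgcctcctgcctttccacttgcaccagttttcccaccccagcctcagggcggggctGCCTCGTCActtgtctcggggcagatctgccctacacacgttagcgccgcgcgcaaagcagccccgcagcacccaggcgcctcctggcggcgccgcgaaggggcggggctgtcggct

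The 2 listed base chaperones with PSM symbols, PSMD5 and PSMD9, changed by 0.05 and 0.21 in HepG2 and by 0.07 and 0.11 in LM3. PSMD5 (gene 5711), a chaperone of the base, was 17.93, 16.64 and 17.58 in HepG2 siNC and 17.83, 18.05 and 18.30 in HepG2 siFASRL. In LM3 PSMD5 was 34.02, 32.55 and 31.87 under siNC and 33.86, 35.16 and 34.77 under siFASRL. Its groups overlapped in both lines and it was not called (0.05 in HepG2, limma adjusted p = 0.366; 0.07 in LM3, limma adjusted p = 0.2), but with median-of-ratios scaling it was called higher in LM3 (0.19). PSMD9 (gene 5715), a second chaperone of the base, was 11.88, 13.21 and 11.54 in HepG2 siNC and 13.10, 15.08 and 14.52 in HepG2 siFASRL. The HepG2 groups overlapped by 1 library, and the call (0.21 ± 0.07; limma adjusted p = 0.0215) was lost with equal sums (0.14) and without siFASRL replicate 2 (0.17), siFASRL replicate 3 (0.19), siNC replicate 1 (0.19) or siNC replicate 3 (0.17). In LM3 PSMD9 read 19.67, 22.58 and 22.49 under siNC and 22.60, 24.16 and 23.29 under siFASRL and was not called (0.11; limma adjusted p = 0.149), except with median-of-ratios scaling (0.22).

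The listed chaperones of the 20S core with PSM symbols were PSMG1 and PSMG2, which together form the dimer on which the alpha ring assembles. PSMG1 (gene 8624) was 61.20, 53.71 and 63.56 in HepG2 siNC and 73.28, 71.81 and 75.52 in HepG2 siFASRL, and in LM3 63.34, 56.90 and 60.73 under siNC and 68.54, 67.02 and 70.11 under siFASRL. All siFASRL libraries were above the controls, and PSMG1 was called in HepG2 (0.30 ± 0.07; limma adjusted p = 0.00238), except with quantile normalization (0.15). The LM3 call (0.18 ± 0.06; limma adjusted p = 0.0155) was lost with quantile normalization (0.08), with equal sums (0.06) and without siFASRL replicate 3 (0.17) or siNC replicate 2 (0.14). PSMG2 (gene 56984) was 39.00, 38.48 and 41.81 in HepG2 siNC and 38.12, 44.69 and 45.27 in HepG2 siFASRL, which overlapped and was not called (0.10; limma adjusted p = 0.24), except without siFASRL replicate 1 (0.17). In LM3 it rose without overlap, from 44.52, 44.97 and 50.42 to 58.71, 57.86 and 60.49 (0.34 ± 0.06; limma adjusted p = 0.00102). Whether this effect differed between the lines was tested directly and missed the threshold (0.24 ± 0.10; limma adjusted p = 0.0656), but passed it with median-of-ratios scaling, with the replicate block and without HepG2 siFASRL replicate 3 or LM3 siNC replicate 3.

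The listed activators were PSME3, which forms the nuclear PA28 gamma cap, and PSME4, the PA200 cap. PSME3 (gene 10197) was 60.26, 56.49 and 62.17 in HepG2 siNC and 80.00, 72.98 and 73.35 in HepG2 siFASRL (0.33 ± 0.06; limma adjusted p = 0.000685), and in LM3 72.67, 70.02 and 72.71 under siNC and 88.52, 87.26 and 90.33 under siFASRL (0.30 ± 0.05; limma adjusted p = 0.000455). It rose without overlap in both lines. PSME4 (gene 23198, chr2:53864069-53970993) split the lines: it was 22.39, 21.15 and 22.34 in HepG2 siNC and 26.22, 24.98 and 25.88 in HepG2 siFASRL, but 17.54, 16.80 and 17.08 in LM3 siNC and 13.99, 14.73 and 14.32 in LM3 siFASRL. All siFASRL libraries lay above the controls in HepG2 (0.22 ± 0.05; limma adjusted p = 0.00385) and below them in LM3 (-0.24 ± 0.05; limma adjusted p = 0.00182), and both calls held in all scalings, though the LM3 change was only -0.13 with median-of-ratios scaling (limma adjusted p = 0.0378) and -0.15 with quantile normalization.

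PSMF1 (gene 9491, chr20:1113263-1172246) encodes PI31, which binds the core and inhibits it in vitro. It was 40.03, 38.35 and 42.59 in HepG2 siNC and 53.59, 43.83 and 41.93 in HepG2 siFASRL. Here the siFASRL libraries reached above the controls except for replicate 3, and PSMF1 was not called (0.19 ± 0.09; limma adjusted p = 0.0678), but was called without that library (0.26), with the replicate block and in the joint fit of 12 libraries. In LM3 it rose from 18.48, 16.73 and 18.03 to 25.59, 24.38 and 23.83 with no overlap (0.45 ± 0.06; limma adjusted p = 0.000117).

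The difference between lines was tested with an interaction term over all 12 libraries, as the siFASRL effect in LM3 minus that in HepG2. Limma called 11 of 38 members lower (28.9%, against 27.2% of the 8285 genes tested) and 1 higher (2.63%, against 19.5%). Together these are 12 members (31.6%, against 46.7% of all genes tested), and 10 to 14 when 1 library was left out. The share of lower calls is thus near that of all genes, and the split of all calls depended on scaling, with 41.7% of calls higher as deposited and 52.7% with median-of-ratios scaling, where 4 members were called higher, PSMB10, PSMF1 and PSMG2 among them, and 9 lower. The replicate block likewise called PSMB10 and PSMG2 higher. By class, 10 of the 17 subunits of the 19S particle had a lower effect in LM3, led by PSMD2 (-0.66 ± 0.06; limma adjusted p = 3.08e-06) and PSMC3 (-0.48 ± 0.07; limma adjusted p = 6.48e-05). Of the 12 constitutive core subunits limma called 0, with 1 lower at an unadjusted p under 0.05. PSME4 (-0.46 ± 0.06; limma adjusted p = 7.44e-05) joined the lower calls. The single higher call was PSMB9 (0.41 ± 0.10; limma adjusted p = 0.00395), which fell less in LM3 than in HepG2 on this scale. Side by side, 22 members were called higher in both lines (57.9%, against 29.6% of the 7349 genes tested in both), and 1, PSMB9, was called lower in both (2.63%, against 36%). Of these 22, 10 lost their LM3 call with equal sums and 7 with quantile normalization. With median-of-ratios scaling PSMD9 joined the 22. Without LM3 siNC replicate 1, limma called 13 members lower, PSMB1 and PSMB5 among them, and 1 higher. With equal sums it also called 13 lower and 1 higher, with the core subunit PSMA4 among the lower. PSMA4 was called lower without HepG2 siNC replicate 3 as well.

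Proteasome parts and partners outside the PSM symbols were listed with 12 genes. For this and the further lists, the shares over all genes tested are 44.8% higher and 44.3% lower in HepG2 and 33.9% higher and 43.5% lower in LM3. Of the 12 genes 10 rose and 1 fell in HepG2 (median 0.48), and 9 rose in LM3 (median 0.27; 8 in HepG2 and 8 in LM3 with quantile normalization, and 7 in LM3 with equal sums, where 1 fell). AKIRIN2, an adaptor that brings proteasomes into the nucleus, led in both lines (0.96 ± 0.06, limma adjusted p = 6.74e-07 in HepG2; 0.89 ± 0.06, limma adjusted p = 4.52e-06 in LM3). UBLCP1, a phosphatase of nuclear proteasomes, followed with 0.79 ± 0.07 in HepG2 and 0.77 ± 0.06 in LM3. PAAF1, which binds free 19S ATPases and holds the cap off the core, fell in HepG2, from 10.84, 9.97 and 12.38 to 6.87, 7.50 and 7.79 (-0.52 ± 0.08; limma adjusted p = 0.000184), and was not called in LM3 (-0.02 ± 0.07; limma adjusted p = 0.842).

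The route by which NFE2L1 induces proteasome genes was listed with 7 genes. In HepG2 3 rose and 1 fell (median 0.12), and in LM3 5 rose (median 0.17; 3 with equal sums, where 1 fell). In HepG2 the share that rose and the median are near those of all genes tested (44.8% and 0.10). NFE2L1 itself, the transcription factor, was not called in either line (0.12 in HepG2, limma adjusted p = 0.11; 0.02 in LM3, limma adjusted p = 0.684) but was called higher in LM3 with median-of-ratios scaling (0.14). Its small MAF partner MAFK went from 37.60, 42.19 and 31.60 to 84.30, 112.10 and 102.77 in HepG2 and from 52.74, 67.26 and 61.11 to 130.68, 135.53 and 125.58 in LM3. Those groups did not overlap, with differences of 1.40 ± 0.12 (limma adjusted p = 4.09e-06) and 1.11 ± 0.09 (limma adjusted p = 6.9e-06). MAFF rose by 1.04 ± 0.06 and 0.85 ± 0.05. The related factor NFE2L2 fell in HepG2 (-0.44 ± 0.06; limma adjusted p = 9.54e-05) and was called higher in LM3 (0.15 ± 0.05; limma adjusted p = 0.0226), the latter call being lost with quantile normalization (0.07) and with equal sums (0.03).

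Among 15 listed genes for ubiquitin, its activating enzymes and shuttle factors, 11 rose and 3 fell in HepG2 (median 0.44, beside 44.8% higher and 44.3% lower over all genes tested), and 10 rose and 3 fell in LM3 (median 0.34, beside 33.9% and 43.5%). With quantile normalization 9 rose and 4 fell in HepG2, and 7 rose and 2 fell in LM3. SQSTM1, the autophagy receptor p62, went from 157.93, 159.47 and 153.50 to 410.85, 419.94 and 420.86 in HepG2 and from 154.07, 172.94 and 171.77 to 310.94, 324.08 and 311.76 in LM3. Its groups did not overlap, with a rise of 1.40 ± 0.05 in HepG2 (limma adjusted p = 3.93e-08) and of 0.92 ± 0.06 in LM3 (limma adjusted p = 2.97e-06). UBQLN4, a shuttle that brings ubiquitylated proteins to the proteasome, fell in HepG2 (-0.86 ± 0.06; limma adjusted p = 1.43e-06) and in LM3 (-0.51 ± 0.05; limma adjusted p = 1.6e-05). The second largest falls were those of UBA6, a ubiquitin activating enzyme, in HepG2 (-0.31) and of NPLOC4, a cofactor of the segregase p97, in LM3 (-0.38).

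Of 13 antigen processing partners of the immunoproteasome, 10 fell and 2 rose in HepG2 (median -0.47, beside 44.3% lower and 44.8% higher over all genes tested). In LM3 8 fell and 1 rose (median -0.18, beside 43.5% and 33.9%), with 4 falling and 3 rising under median-of-ratios scaling, where 2769 of the 7483 genes tested were called lower, and 10 falling under equal sums. On the log2(value + 1) scale the largest fall was that of TAPBP, tapasin, which bridges MHC class I to the peptide transporter: 63.71, 66.87 and 65.54 became 32.08, 27.55 and 29.50 in HepG2 (-1.11 ± 0.07; limma adjusted p = 4.08e-07). In LM3 36.00, 36.66 and 37.76 became 16.73, 15.96 and 16.17 (-1.13 ± 0.05; limma adjusted p = 4.58e-07). The peptide trimming enzyme ERAP2, at levels under 3.2, had log2 fold changes of -0.74 ± 0.07 and -0.68 ± 0.06. The genes that rose were TAP2 (0.31) and TAP1 (0.25) in HepG2 and HLA-E (0.22) in LM3, the last not with equal sums (0.10).

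Other multisubunit complexes were read alongside. Of the 8 subunits of the CCT chaperonin, which folds actin and tubulin, 7 rose in HepG2 (median 0.45) and 7 in LM3 (median 0.41; 5 higher and 1 lower with quantile normalization, 6 higher and 1 lower with equal sums). CCT5 was first in both lines (1.44 ± 0.07 and 1.01 ± 0.07), followed by CCT6A in HepG2 (0.67) and CCT2 in LM3 (0.51). The COP9 signalosome and eIF3, relatives of the proteasome lid, had 17 of 20 listed subunits higher and 1 lower in HepG2 (median 0.35), and 19 higher and 1 lower in LM3 (median 0.44); with quantile normalization 12 were higher in HepG2 and 14 in LM3. EIF3J rose most (0.94 in HepG2 and 0.80 in LM3), then EIF3F in HepG2 (0.93) and EIF3D in LM3 (0.75), while COPS7A fell (-0.30 and -0.20, the latter not with median-of-ratios scaling). Shares of this size were thus not limited to proteasome genes.

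**Figure D5:**
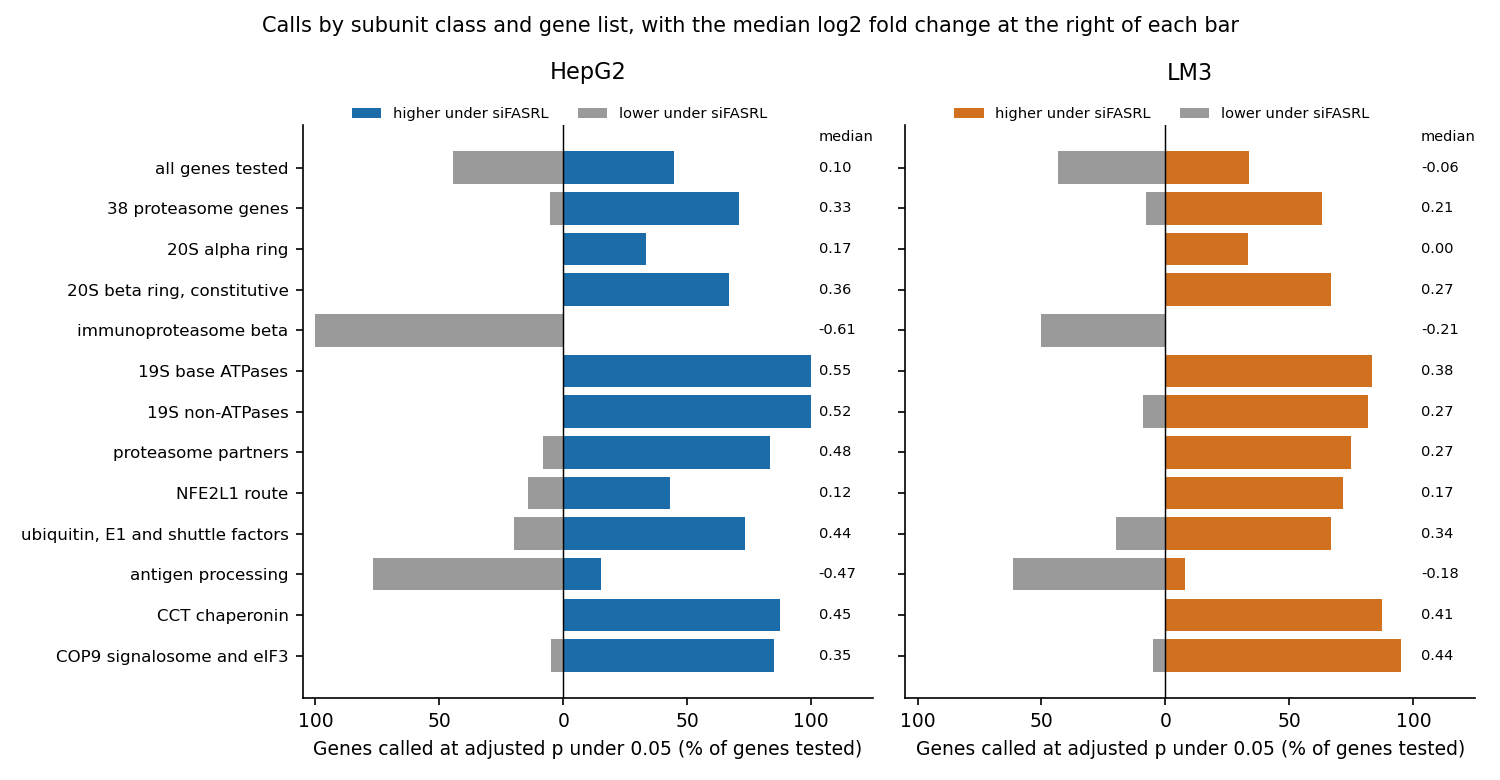
Share of genes called higher (coloured) or lower (grey) under siFASRL by limma in each class or list, in HepG2 (left) and LM3 (right), with the median log2 fold change at the right of each bar. All 6 base ATPases and 11 non-ATPases were higher in HepG2, beside 44.8% of all genes tested.

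The promoter table held 41 windows for 33 of the 38 members, and 6 motifs were searched on both strands of the 250 bases before each start site. TGACNNNGC was present in 11 of 41 member windows (26.8%, against 10.9% of all 35116 windows), CCGGAA in 15 (36.6%, against 14.5%) and CCAAT in 16 (39%, against 32%). TTCNNNGAA, the gamma-activated site, was present in 5 (12.2%, against 6.57%) and GAAANNGAA, the core of interferon-stimulated response elements, in 3 (7.32%, against 6.88%). GCATGCG, the core bound by nuclear respiratory factor 1, which is not NFE2L1, was present in 2 (4.88%, against 3.39%). Windows of genes with several start sites overlap, and a match is a description of the letters. PSMB10, PSMA4 and PSMB4 held the interferon core, PSMB9 did not within its window, and CCAAT in the PSMB9 window lay outside the printed stretch.

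Some levels may include reads of similar or overlapping genes, because the counting is not stated to use strand. GENCODE names pseudogenes for 9 members, most for PSMC1 with 13, PSMA6 with 4 and PSMA2 with 3. The RefSeq span of 15 members overlaps another gene, for PSMC2, PSMC5 and PSMG2 another listed gene (SLC26A5, FTSJ3 and SPIRE1), and PSMD6 has antisense genes, from which its reads cannot be told apart. None of PSMC3, PSMB9, PSMB10, PSMD2, PSMC4 and PSME4 overlaps another RefSeq gene or has a named pseudogene.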

How the data were processed

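Per the study's methods and the submitters' processing notes, the authors filtered reads with SOAPnuke 1.5.2, aligned them with HISAT2 2.0.4 and Bowtie2 2.2.5 and estimated expression with RSEM 1.2.12. The deposited values are 2-decimal RSEM levels per gene. They were taken as FPKM or TPM and not as counts, although the unit is not stated. The notes name hg19, while the chromosome names in the tables are those of GRCh38. Tables of 12 libraries and 8842 genes were joined by gene identifier; 17 symbols altered to dates were restored, and 6 further columns, the LM3 libraries repeated in the table of HepG2 siFASRL replicate 3, were not used. Genes that reached a value of 1 in 3 or more libraries of a comparison were tested with limma 3.58.1 (R 4.3.3; lmFit and eBayes, two-sided) on log2(value + 1), with Benjamini-Hochberg adjustment over all genes tested and calls at an adjusted p under 0.05. Single values were compared by exact permutation in Python 3.11.15 (pandas 2.3.3, matplotlib 3.10.9). Alternatives are in the closing section. Values in every library are given for all immunoproteasome subunits, chaperones, activators and PI31, for members past an absolute log2 fold change of 1, for the 3 that rose and fell most in a line, the 3 that differed most between lines and the highest and lowest under siNC; others, such as PSMD8, fall outside that rule. In each further gene list up to 2 genes among those that rose and up to 2 among those that fell most in a line are named, while NFE2L1 and the markers are given outside it. Members and lists were chosen with earlier results of these data known.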

Additional observations from a re-analysis of the deposited data

Results flagged for a closer look

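For 12 members the siFASRL effect differed between the lines by the interaction test of limma over 12 libraries (adjusted p under 0.05), which is 31.6% of the members, against 46.7% of all genes tested. PSMB9 fell less in LM3 than in HepG2, with a difference of 0.41 on the log2 scale. The effect was lower in LM3 for the base ATPases PSMC1 (-0.27), PSMC2 (-0.33), PSMC3 (-0.48) and PSMC6 (-0.35). Lower effects were also found for the non-ATPase subunits PSMD1 (-0.31), PSMD2 (-0.66), PSMD7 (-0.20), PSMD11 (-0.38), PSMD13 (-0.25) and PSMD14 (-0.39), and for the activator PSME4 (-0.46). PSMD7 and PSMD13 lost this call with median-of-ratios scaling. PSMD7 also lost it with the replicate block and without any 1 of HepG2 siFASRL replicates 2 and 3, HepG2 siNC replicates 2 and 3, LM3 siFASRL replicates 1 and 3 and LM3 siNC replicate 3, and PSMD13 without LM3 siFASRL replicate 1 or LM3 siNC replicate 3. What underlies these differences was not tested.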

How the results depend on the processing

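Alternatives moved the sizes more than the directions, and no result changed direction past the test's threshold. In HepG2, 1 member was called lower with a value of at least 5 required, because PSMB9 was then not tested, and the members' median was 0.24 with quantile normalization and 0.27 with equal sums over the listed genes (chosen after seeing the data). In LM3, the members called lower were 6 with quantile normalization and 6 with equal sums. Those called higher were 28 with median-of-ratios scaling, 17 with quantile normalization and 14 with equal sums. Of the 7483 genes tested in LM3, 3140, 2813 and 1854 were called higher with these scalings in turn. The members' median was 0.33 with median-of-ratios scaling, 0.14 with quantile normalization and 0.10 with equal sums, and the cause was not tested. Leaving out each library in turn gave 25 to 30 members higher and 2 lower in HepG2, 17 to 22 higher and 2 to 4 lower in LM3 with a median of 0.17 to 0.25, 10 to 14 members differing between lines, and 18 to 25 higher and 5 to 6 lower in LM3 than in HepG2 under siNC. For the named members, 236 of 254 alternatives in HepG2, 232 of 255 in LM3 and 267 of 289 for the difference between lines left the call as it was; 11, 20 and 9 lost it and 7, 3 and 13 gained it. Replicate numbers did not pair the samples: deviations of same-numbered siFASRL and siNC libraries correlated at 0.319, 0.371 and -0.2 in HepG2 and -0.08, 0.118 and -0.175 in LM3. With the replicate block, limma called 31 members higher and 2 lower in HepG2, 23 higher and 2 lower in LM3, and 13 differing between lines. The unknown depth limits what can be said of low levels such as PSMB9 in HepG2.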
